A study of Mus musculus with 46 samples.

Results

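The genes described here are Pdcd1, which encodes the receptor PD-1, and Cd274 and Pdcd1lg2, which encode its ligands PD-L1 and PD-L2. They are 3 of the 48795 genes of a bulk RNA-seq table. They were picked by symbol and by no limit on their values, but with earlier results of these data known. Their levels were read in all 8 replicate groups and set against Cd3e, a chain of the T-cell receptor complex, and Csf1r, the receptor through which macrophages respond to colony-stimulating factor 1. The tumors were grown from MC-38, a colon carcinoma line of C57BL/6 mice, injected under the skin of the right flank of female mice that were 8 to 10 weeks old.

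The antibody study used WT C57BL/6NTac mice. It held 3 cultures of MC-38 cells, 3 untreated baseline tumors, and groups of 5 tumors from mice given an isotype control antibody or the PD-1 antibody muDX400 (5 mg/kg). Tumors were taken after 1 dose (day 4 of treatment, day 11 after implantation) or after 2 doses (day 8 and day 15). The deletion study held 10 tumors from mice labelled PD-1cKO (Rosa26-creERT2, Pdcd1 fl/fl) and 10 from controls labelled WT and described in the methods as littermates, and both genotypes received tamoxifen at 40 mg/kg on 5 consecutive days. The label gives day 28 for these tumors, while the text of the methods gives an earlier day. The creERT2 of this line is driven from the Rosa26 locus and is not limited to T cells, and the implanted MC-38 cells carry neither allele. The labels do not give the genotype of the controls beyond WT, and whether each carried the floxed allele is not stated in the sources used here. The labels name separate tumors and not separate mice, so p-values measure the spread between these tumors.

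PD-1 is an inhibitory receptor that T cells display after their antigen receptor has been engaged. When PD-1 binds PD-L1 or PD-L2 it recruits the phosphatase SHP-2, which dampens signaling from the antigen receptor and from CD28. PD-L1 is carried by many cell types, tumor cells and macrophages among them, and interferon gamma is a strong inducer of it through JAK kinases and the transcription factor IRF1. PD-L2 is more restricted, mainly to macrophages and dendritic cells, and responds to interleukin 4 as well as to interferons.

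In the reference annotation of the mouse build GRCm38, Pdcd1 (ENSMUSG00000026285) lies on chromosome 1 from 94038305 to 94052553 on the minus strand and has 5 exons. The ligand genes are neighbours on the plus strand of chromosome 19. Cd274 (ENSMUSG00000016496) spans 29367455 to 29388095 in 7 exons, and Pdcd1lg2 (ENSMUSG00000016498) spans 29410919 to 29471161 in 6 exons, with 22823 bases between them. The floxed allele removes exons 2 and 3 of Pdcd1, which hold 522 of the 1930 bases of the transcript (27.0%). These are 174 codons, so splicing from exon 1 to exon 4 keeps the reading frame. The joins are shown because the whole-gene values below cannot separate them. Capitals mark the first bases of the exon that follows exon 1.
Intact, exon 1 to exon 2: cagggtggcttctagAGGTCCCCAATGGGC
After deletion, exon 1 to exon 4: cagggtggcttctagAGGCCAGAGGAGCTG

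The stretches of 250 bases before the RefSeq start (GRCm38.p6) are shown for Pdcd1 and Pdcd1lg2, because all 3 genes were called higher after 2 doses of the antibody. The window of Cd274 overlaps the first exon of Plgrkt on the opposite strand, so only 28 bases of it are printed. These 28 bases also lie within the annotated span of Plgrkt. Capitals mark matches to the letters AANNGAAA, a core bound by interferon regulatory factors, and in Pdcd1lg2 also a match to a core bound by NF-kappaB, GGG and CC parted by any 5 bases. Both strands were searched, and no 2 of the marked matches overlap.
Pdcd1, chr1:94052554-94052803, minus strand: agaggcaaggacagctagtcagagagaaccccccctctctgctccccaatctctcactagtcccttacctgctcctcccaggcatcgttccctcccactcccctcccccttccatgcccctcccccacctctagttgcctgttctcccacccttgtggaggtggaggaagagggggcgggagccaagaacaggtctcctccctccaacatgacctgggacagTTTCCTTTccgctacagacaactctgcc
Cd274, chr19:29367253-29367280, plus strand: cgaagcctagTTTCGTTTtttcttaaac
Pdcd1lg2, chr19:29410669-29410918, plus strand: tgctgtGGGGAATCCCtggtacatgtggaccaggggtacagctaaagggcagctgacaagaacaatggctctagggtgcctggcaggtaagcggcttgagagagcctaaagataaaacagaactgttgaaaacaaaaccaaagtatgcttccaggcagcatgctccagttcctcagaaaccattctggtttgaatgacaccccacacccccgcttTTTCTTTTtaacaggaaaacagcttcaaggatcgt

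Each of the 3 windows held 1 match to AANNGAAA, beginning 28 bases before the start in Pdcd1, 175 in Cd274 and 35 in Pdcd1lg2. Of 32851 mouse promoters of this length 21.3% held this short motif, and 45.8% held the NF-kappaB core. The letters TGANTCA, bound by AP-1, were in none of the 3 windows and in 6.75% of all promoters.

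Values are FPKM, in which the fragments of a gene are divided by its transcript length and by the sample's total, so levels may be compared between genes. Low values of a sample stepped in multiples of a fixed amount, taken as the worth of 1 fragment, from which the fragments behind the values were estimated. The methods of the study give a higher range of mapped reads per sample, and the difference was not resolved, so the totals are estimates. The samples of the antibody study rested on an estimated 8.22 M to 12.8 M fragments (M, mega), apart from the cultures, which had 21.3 M to 27.7 M, and 1 isotype control tumor with 30.6 M. Those of the deletion study rested on 20.8 M to 55.3 M. That isotype control tumor, replicate 1 after 1 dose, stood apart. Mitochondrial genes held 54.6% of its FPKM, against 3.45% to 4.31% in the other 4 tumors of its group, and results that change without it are given both ways. Summed over 6 macrophage markers the FPKM was 2.66 to 3.28 in the cultures and at least 146 in every tumor, and 4 of the 6 T-cell markers were at 0 in every culture, Cd3e among them. In bulk tissue, fewer cells of a type and less RNA per cell cannot be told apart.

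The cultured tumor cells held PD-L1 transcripts, and hardly any of the other 2 genes. The Cd274 FPKM in the 3 cultures was 1.33, 1.63 and 1.55, on 125 to 150 fragments per culture. Pdcd1 was 0, 0 and 0.0194 FPKM and Pdcd1lg2 was 0, 0 and 0.0228 FPKM, each resting on 1 fragment in 1 culture. Ifng, the interferon gamma gene, was 0 in all 3. In isotype control tumors after 2 doses Cd274 was 7.02, 12.6, 8.58, 20.1 and 10.6 FPKM, all above every culture. Pdcd1 in the same tumors was 1.30, 1.42, 2.35, 3.36 and 1.95 FPKM. Pdcd1lg2 was 0.407, 0.833, 1.09, 1.33 and 1.17 FPKM. None of the 3 genes overlapped between these groups, and 26.3% of all tested genes were likewise higher in every tumor.

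Pooled over libraries, Cd274 fragments were 7.68-fold more frequent in the isotype control tumors than in the cultures (95% exact interval 6.91 to 8.55). For Pdcd1 the ratio was 298 (232 fragments against 1, interval 52.9 to 11801), and for Pdcd1lg2 it was 119 (93 fragments against 1, interval 20.9 to 4761). These intervals cover counting error only. With limma on log2(FPKM + 0.1), all 3 genes were called, meaning an adjusted p under 0.01 and at least a 2-fold change, with 21.3% of the 15199 tested genes called in this comparison (14.2% higher in tumors and 7.09% lower). The log2 fold change was 2.80 for Cd274 (SE 0.30, adjusted p 5.2e-05) and depends on the constant of 0.1 for the genes near 0 in culture. With 1 FPKM added, Pdcd1lg2 fell under the 2-fold limit (log2 fold change 0.94).

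Untreated baseline tumors were close to isotype control tumors in the ligands. Cd274 was 12.3, 12.7 and 8.46 FPKM and Pdcd1lg2 was 0.825, 0.850 and 1.63 FPKM in the 3 tumors. Pdcd1 was 1.61, 2.23 and 0.0516 FPKM, the last resting on 1 fragment in a tumor whose Cd3e (0.485 FPKM) was also the lowest of the 3.

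**Figure D1:**
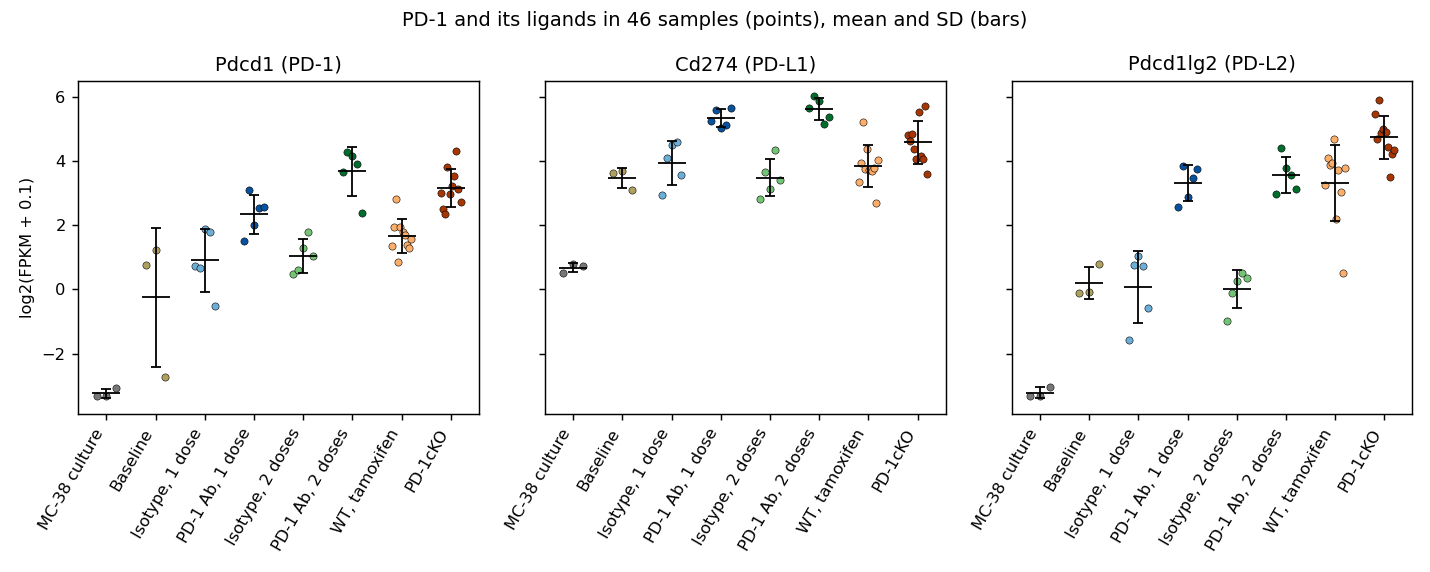
Levels of Pdcd1, Cd274 and Pdcd1lg2 as log2(FPKM + 0.1) on the vertical axis in each of the 46 samples (points) of the 8 groups on the horizontal axis, with the mean and SD of each group as bars. Pdcd1 and Pdcd1lg2 lie at the floor in the 3 cultures while Cd274 does not, and all 3 genes are higher in the PD-1 Ab-treated group than in its isotype control group after 2 doses.

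The groups were ordered differently by the receptor and by each ligand. For Pdcd1 the means rose from the cultures (0.00647 FPKM ± 0.0112, SD, n = 3) to PD-1cKO (9.61 ± 4.51, n = 10) and PD-1 Ab after 2 doses (14.0 ± 5.62, n = 5). For Cd274 the highest means were those of PD-1 Ab after 1 dose (40.7 ± 7.97, n = 5) and 2 doses (50.0 ± 11.9, n = 5), with PD-1cKO below them (26.4 ± 13.2, n = 10). For Pdcd1lg2 the highest mean was PD-1cKO (29.3 FPKM ± 14.0, n = 10), followed by PD-1 Ab after 2 doses (12.6 ± 5.27, n = 5) and WT given tamoxifen (12.3 ± 6.82, n = 10). WT tumors of the deletion study thus had Pdcd1lg2 at the level of antibody-treated tumors, while the isotype groups of the antibody study stood at 1.19 ± 0.737 (n = 5) after 1 dose and 0.967 ± 0.362 (n = 5) after 2 doses. The studies differ in day, treatment and library content, so this difference between studies cannot be told apart from those. Among neighbours in the order of the tumor groups, the ranges overlapped everywhere except for Pdcd1lg2 between isotype control and PD-1 Ab after 1 dose.

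Within most tumors PD-L1 was the more abundant ligand per transcript length. The mean log2 ratio of Cd274 to Pdcd1lg2 was 3.86 ± 0.48 (SD, n = 5) in isotype control tumors after 1 dose, 3.47 ± 0.46 (n = 5) after 2 doses, 0.54 ± 0.86 (n = 10) in WT tumors given tamoxifen and -0.16 ± 0.82 (n = 10) in PD-1cKO tumors.

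After 1 dose of PD-1 Ab both ligands were above every isotype control tumor, and PD-L2 had the largest fold difference of the 3 genes. Pdcd1lg2 was 0.239, 1.61, 1.95, 1.57 and 0.573 FPKM in isotype control tumors and 5.81, 14.4, 7.22, 11.1 and 13.4 in PD-1 Ab-treated tumors. Cd274 was 7.63, 17.1, 22.5, 23.8 and 11.8 FPKM in isotype control tumors and 37.7, 47.6, 32.6, 34.9 and 50.7 in PD-1 Ab-treated tumors. The groups did not overlap in either gene, as was the case, with all treated tumors higher, for 3.59% of the 14556 tested genes. Pdcd1 was 1.56, 1.501, 3.57, 3.38 and 0.597 FPKM in isotype control tumors and 2.78, 8.51, 3.91, 5.66 and 5.83 in PD-1 Ab-treated tumors, 4 of which lay above every control.

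None of the 3 genes passed the test of this comparison, in which limma called 0% of 14556 genes, with 895 at an unadjusted p under 0.05. The log2 fold change was 3.22 for Pdcd1lg2 (SE 0.49, adjusted p 0.0935), 1.39 for Cd274 (SE 0.31, adjusted p 0.233) and 1.43 for Pdcd1 (SE 0.46, adjusted p 0.492). The median over all tested genes was 0.26 and fell to 0.01 when samples were scaled by median of ratios, under which Pdcd1lg2 was 3.01, Cd274 1.13 and Pdcd1 1.18. Without the mostly mitochondrial isotype control tumor, Pdcd1lg2 passed (log2 fold change 2.81, adjusted p 0.00934). It also passed when all 8 groups shared 1 estimate of the spread (adjusted p 0.000918).

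After 2 doses all 3 genes rose. Pdcd1 in PD-1 Ab-treated tumors was 12.6, 19.4, 17.8, 15.0 and 5.10 FPKM, each above the highest isotype control tumor (3.36). Cd274 was 49.9, 64.8, 58.2, 35.7 and 41.4 FPKM in these tumors, each above the highest control (20.1). Pdcd1lg2 was 7.80, 20.99, 13.6, 11.8 and 8.61 FPKM, against at most 1.33 in the controls. Of all tested genes 9.23% were higher in every treated tumor than in every control. PD-1 Ab-treated replicate 5 was the lowest of its group in Pdcd1, in Cd3e (4.48 FPKM, against 12.1 to 19.0 in the others) and in Csf1r (57.3, against 107 to 147), but not in either ligand.

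By limma the log2 fold change after 2 doses was 3.56 for Pdcd1lg2 (SE 0.32, adjusted p 0.000806), 2.64 for Pdcd1 (SE 0.36, adjusted p 0.00106) and 2.14 for Cd274 (SE 0.26, adjusted p 0.000885). All 3 of 3 members were called, where 5.3% of 15062 tested genes were called (5.03% higher). All 3 were also called without any 1 of the 10 tumors and under every other setting tried. Cd3e rose by 2.52 (SE 0.41, adjusted p 0.00219) and Csf1r by 1.46 (SE 0.23, adjusted p 0.00182) on the same scale. The effect after 2 doses minus that after 1 dose was 1.21 for Pdcd1 (SE 0.61, adjusted p 0.623), 0.75 for Cd274 (SE 0.42, adjusted p 0.626) and 0.34 for Pdcd1lg2 (SE 0.62, adjusted p 0.811) by limma. None of them passed, and of 15289 genes 0% passed while 1182 were at an unadjusted p under 0.05.

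**Figure D2:**
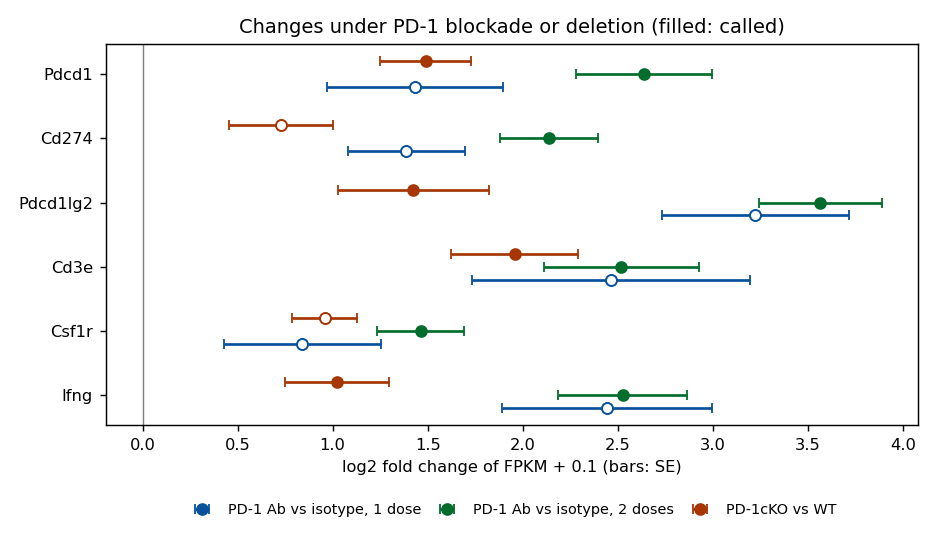
Log2 fold change of FPKM + 0.1 (horizontal axis, bars give the SE) for the 3 members, Cd3e, Csf1r and Ifng in 3 comparisons, with filled points called at an adjusted p under 0.01 and at least 2-fold. Pdcd1lg2 is farthest to the right under PD-1 Ab at both times, and all 6 genes lie to the right of 0 in all 3 comparisons.

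In the deletion study the receptor gene was read first, as the target. Pdcd1 ranged from 5.05 to 19.9 FPKM in tumors labelled PD-1cKO (median 8.29, n = 10) and from 1.71 to 7.02 in WT tumors (median 3.01, n = 10), resting on 332 to 1193 and 98 to 461 fragments. Of the PD-1cKO tumors, 7 of 10 lay above every WT tumor and none lay below. By limma it differed by 1.49 on the log2 scale (SE 0.24, adjusted p 0.000658), so whole-gene Pdcd1 rose under the label of its deletion. The 73.0% of the transcript outside exons 2 and 3 stays in the deleted allele, and a value for the whole gene does not check the deletion.

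PD-L2 also rose and PD-L1 did not pass. Pdcd1lg2 ranged from 11.2 to 59.7 FPKM in PD-1cKO tumors (median 27.5, n = 10) and from 1.34 to 25.4 in WT tumors (median 13.4, n = 10), and 6 of 10 lay above every WT tumor. By limma it differed by 1.42 (SE 0.40, adjusted p 0.00820). Cd274 ranged from 12.1 to 52.5 FPKM in PD-1cKO tumors (median 22.6) and from 6.38 to 37.2 in WT tumors (median 13.5), and only 2 of 10 lay above every WT tumor. By limma it differed by 0.73 (SE 0.27, adjusted p 0.0364). Of the 15075 tested genes 8.07% were called in this comparison (4.2% higher and 3.87% lower), and the median over all tested genes was -0.20. With samples scaled by median of ratios that median was -0.04 and Cd274 was at 0.89 (adjusted p 0.00497), still under the 2-fold limit.

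The call of Pdcd1lg2 was near the limit, and it was lost without any 1 of 12 of the 20 tumors (WT replicates 1, 4, 6, 7, 8 and 10 and PD-1cKO replicates 1, 3, 4, 5, 6 and 7, adjusted p up to 0.0174). Pdcd1 stayed called without any 1 tumor. WT replicate 3 had the highest Pdcd1, Cd274, Cd3e (5.83 FPKM, against at most 2.03 in the other WT tumors) and Ifng of the WT tumors. Without it the log2 fold change was 1.62 for Pdcd1, 0.88 for Cd274 (adjusted p 0.0109) and 1.49 for Pdcd1lg2 (adjusted p 0.00957).

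The sample identifiers of the deletion study fall into 3 runs, and their meaning is not given in the sources used here. Run 1 holds 7 PD-1cKO tumors and no WT tumor, run 2 holds 1 and 9, and run 3 holds 2 and 1, so genotype and run can barely be told apart. Within run 2 the PD-1cKO tumor had 19.9 FPKM of Pdcd1, above all 9 WT tumors (1.71 to 7.02), and 11.2 FPKM of Pdcd1lg2, inside their range (1.34 to 25.4). Within run 3 the PD-1cKO tumors had 6.47 and 8.58 FPKM of Pdcd1 and the WT tumor had 2.87. Pdcd1lg2 there was 20.3 and 18.4 FPKM against 13.8, and Cd274 was 12.1 and 52.5 against 16.1. Pdcd1 was thus higher in PD-1cKO in both runs that hold both genotypes, and the ligands were not higher in each. With the runs as a covariate limma called 0 genes, with 6533 at an unadjusted p under 0.05. The log2 fold change was then 2.09 for Pdcd1 (adjusted p 0.0254), 0.40 for Cd274 (adjusted p 0.550) and 0.34 for Pdcd1lg2 (adjusted p 0.716). The samples of the antibody study were not divided into runs. Its cultures, its tumors after 1 dose and its tumors after 2 doses have identifiers in separate ranges. Among the tumors after 1 dose, isotype control replicates 1, 2 and 3 have lower identifiers than all the others. The other isotype control tumors share the range of the PD-1 Ab-treated tumors, and any part of this in that comparison was not tested.

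**Figure D3:**
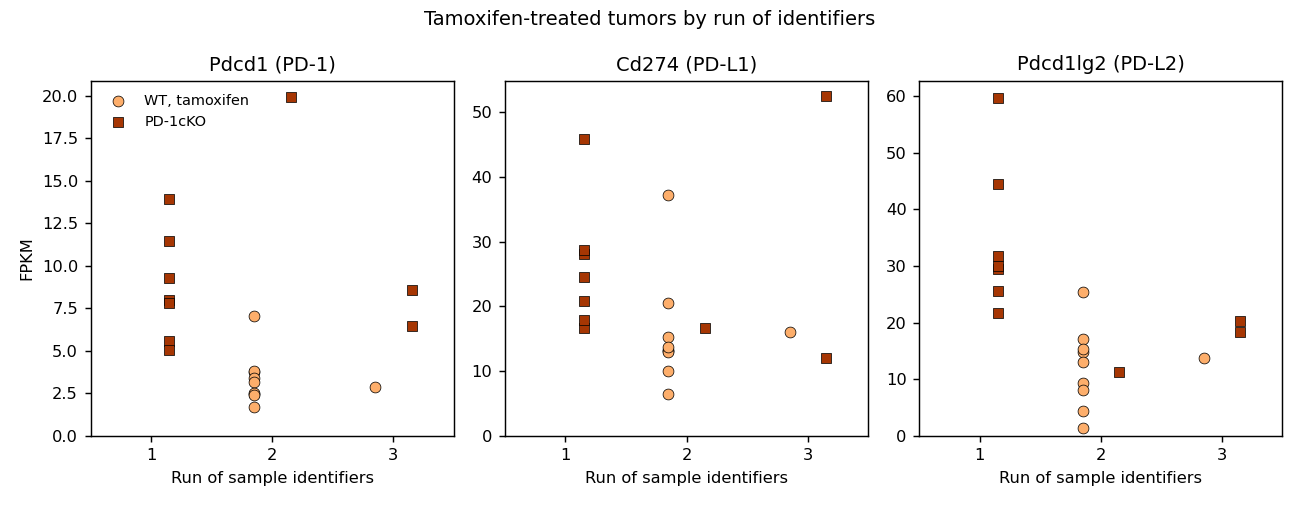
FPKM (vertical axis, from 0) of the 3 members in the 20 tumors of the deletion study by run of sample identifiers (horizontal axis), with circles for WT and squares for PD-1cKO. The 7 tumors of run 1 are all PD-1cKO, and in run 2 the PD-1cKO tumor is above all 9 WT tumors in Pdcd1 only.

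The antibody effect after 2 doses minus the deletion effect was 2.14 on the log2 scale for Pdcd1lg2 (SE 0.63, limma adjusted p 0.108), 1.41 for Cd274 (SE 0.45, adjusted p 0.144) and 1.15 for Pdcd1 (SE 0.44, adjusted p 0.221). None of the 3 passed, where 0.0914% of 16404 genes were called (0.0792% with a larger antibody effect and 0.0122% with a smaller one). This contrast uses the same tumors as the antibody and deletion comparisons above, and the median over all genes was 0.23.

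Set against T-cell content, PD-L2 rose relative to Cd3e after 2 doses of the antibody, and the receptor did not pass. The log2 ratio of Pdcd1 to Cd3e after 2 doses was 0.08 ± 0.09 (SD, n = 5) in PD-1 Ab-treated tumors and -0.04 ± 0.30 (n = 5) in isotype control tumors. The difference of 0.12 did not pass (exact permutation test over all splits, 2-sided, p 0.413, adjusted over 21 ratio tests 0.433), and its sign turned to -0.0084 with the mean of Cd3d, Cd3e and Cd3g in place of Cd3e. The ratio of Pdcd1lg2 to Cd3e was 1.045 higher on the log2 scale in PD-1 Ab-treated tumors, in 5 of 5 above every control (exact permutation p 0.00794, the smallest that 5 against 5 allows, adjusted 0.0238). With a constant of 1 FPKM this difference was 0.63 and did not pass (adjusted p 0.0714). After 1 dose the ratio of Pdcd1lg2 to Cd3e differed by 0.76 and did not pass, with 1 of 5 treated tumors above every control (exact permutation p 0.143, adjusted 0.2). The ratio of Cd274 to Cd3e differed by -1.08 after 1 dose (exact permutation p 0.0635, adjusted 0.121). After 2 doses it differed by -0.38 (exact permutation p 0.381, adjusted 0.421), and neither difference passed.

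Set against myeloid content, PD-L2 rose at both antibody times. The log2 ratio of Pdcd1lg2 to Csf1r was -2.54 ± 0.31 (SD, n = 5) against -4.93 ± 0.54 (n = 5) after 1 dose, and -3.21 ± 0.44 (n = 5) against -5.31 ± 0.62 (n = 5) after 2 doses. Every PD-1 Ab-treated tumor lay above every isotype control tumor, with differences of 2.38 and 2.10 (exact permutation p 0.00794 and adjusted p 0.0238 at each time), and the calls held under the other constant, the other myeloid measure and without any 1 tumor. The ratio of Cd274 to Csf1r was 0.55 higher after 1 dose (exact permutation p 0.0714, adjusted 0.125) and 0.68 higher after 2 doses (exact permutation p 0.0873, adjusted 0.131), and neither passed. Without the mostly mitochondrial isotype control tumor the first of these was 0.75 and passed (exact permutation, adjusted p 0.0417). Pdcd1 to Csf1r rose by 1.18 after 2 doses, in 5 of 5 tumors above every control (exact permutation, adjusted p 0.0238).

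The balance of the ligands shifted toward PD-L2 under the antibody. The log2 ratio of Cd274 to Pdcd1lg2 differed by -1.84 after 1 dose and by -1.42 after 2 doses, with all 5 treated tumors below every control each time (exact permutation, adjusted p 0.0238 for both). With a constant of 1 FPKM the second difference was -0.68 and did not pass (adjusted p 0.104). In the deletion study the same ratio differed by -0.70 (permutation p 0.0805, adjusted 0.130).

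At 1 dose the ratio of Pdcd1 to Cd3e did not pass, and 1 control set much of the size of its difference. The log2 ratio was 3.51 in the mostly mitochondrial tumor, whose Cd3e was 0.0455 FPKM, and at most 1.21 in the other isotype control tumors. The difference was -1.03 (exact permutation p 0.0476, adjusted 0.111), with 4 of 5 treated tumors below every control, and -0.45 without that tumor. Without PD-1 Ab replicate 1 it passed (-1.13, exact permutation, adjusted p 0.0417).

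In the deletion study PD-L1 fell relative to Cd3e, and the other 2 members did not pass. The log2 ratio of Cd274 to Cd3e was 1.97 ± 0.98 (SD, n = 10) in PD-1cKO tumors and 3.20 ± 0.52 (n = 10) in WT tumors. It fell by 1.23, with 7 of 10 PD-1cKO tumors below every WT tumor (permutation p 0.00086, adjusted 0.0181). With a constant of 1 FPKM the difference was -0.79 and did not pass (adjusted p 0.0561). The ratio of Pdcd1 to Cd3e differed by -0.47 (permutation p 0.0635, adjusted 0.121) and that of Pdcd1lg2 to Cd3e by -0.53 (permutation p 0.331, adjusted 0.409). Against Csf1r the differences were 0.53 for Pdcd1 (permutation p 0.0460, adjusted 0.111), -0.23 for Cd274 (permutation p 0.517, adjusted 0.517) and 0.47 for Pdcd1lg2 (permutation p 0.219, adjusted 0.287). Pdcd1 passed when the mean of Csf1r, Cd68, Adgre1 and Itgam stood for myeloid content (0.61, permutation, adjusted p 0.0233).

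**Figure D4:**
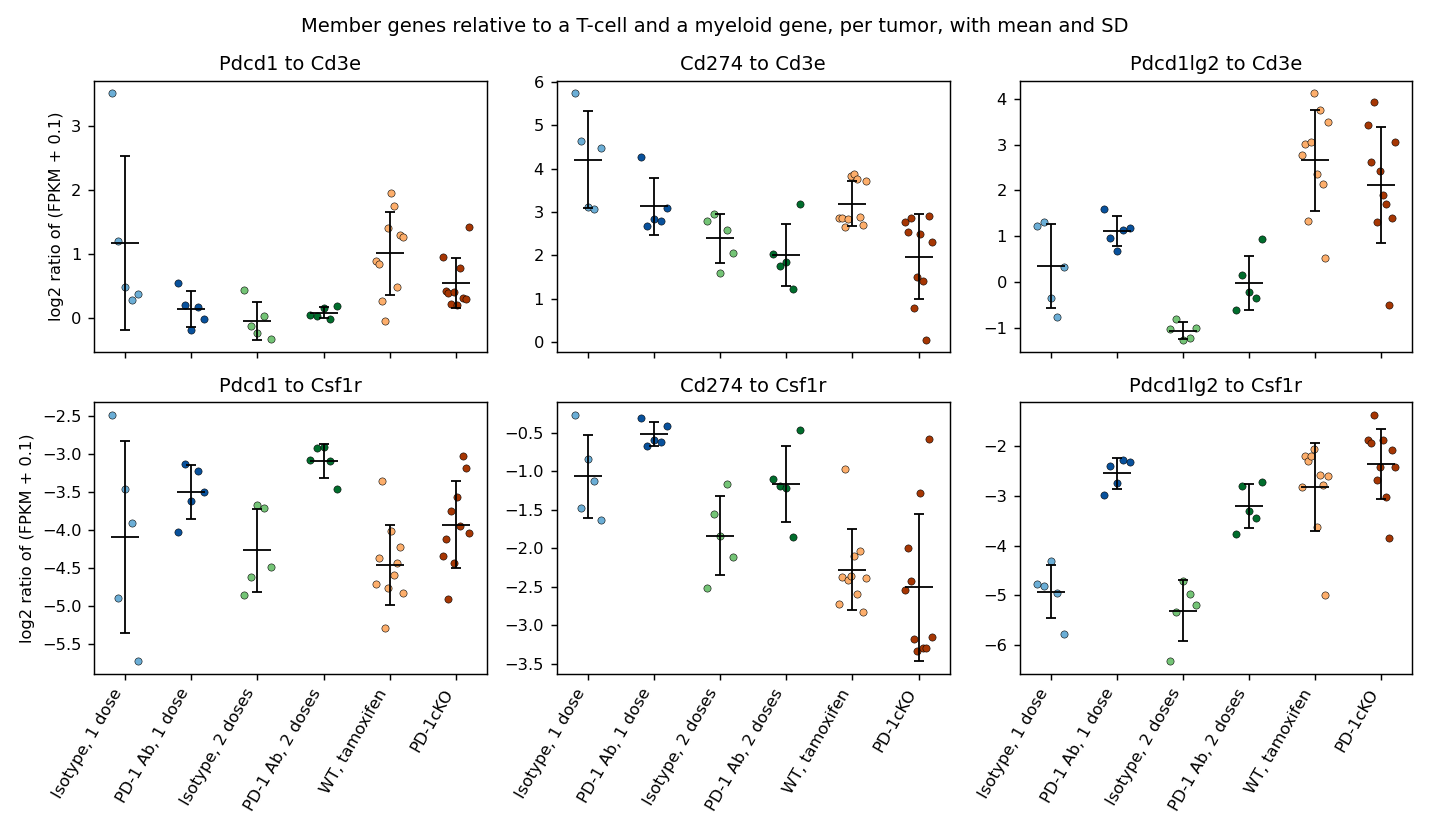
Log2 ratio of each member to Cd3e (top row) and to Csf1r (bottom row), with 0.1 FPKM added to each value, in each tumor (points) of the isotype, PD-1 Ab, WT and PD-1cKO groups, with the mean and SD as bars. Pdcd1lg2 to Csf1r separates PD-1 Ab-treated from isotype control tumors at both times, while Pdcd1 to Cd3e overlaps between all paired groups.

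Only the deletion study had enough tumors per group for correlations, and 12 were computed on log2(FPKM + 0.1). Values of a tumor share its library and its scaling. In PD-1cKO tumors Pdcd1 followed Cd3e (Pearson r 0.886, permutation p 0.00106, adjusted 0.00636, Spearman rho 0.879, permutation p 0.00164, adjusted 0.0197, n = 10). Without the 2 tumors farthest from the median of Cd3e r was 0.876, and within run 1 it was 0.881 (n = 7). In WT tumors the same pair had r 0.594 (permutation p 0.134, adjusted 0.192), rho 0.273 (permutation p 0.451) and r -0.0377 without the 2 farthest tumors.

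In WT tumors PD-L2 followed the myeloid gene. Pdcd1lg2 and Csf1r had r 0.906 (permutation p 0.00012, adjusted 0.00144) and rho 0.855 (permutation p 0.00334, adjusted 0.0200) over 10 tumors, r 0.844 without the 2 farthest and 0.911 within run 2 (n = 9). In PD-1cKO tumors they had r 0.247 (permutation p 0.496, adjusted 0.496), rho 0.309 (permutation p 0.386) and r 0.0736 without the 2 farthest. The difference between the groups was not tested.

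PD-L1 and Ifng had r 0.862 in WT tumors (permutation p 0.00498, adjusted 0.0199), but rho was 0.636 (permutation p 0.0535, adjusted 0.128) and r was 0.342 without the 2 farthest tumors, so the relation rests on those. In PD-1cKO tumors this pair had r 0.638 (permutation p 0.0463, adjusted 0.103), rho 0.479 (permutation p 0.167) and r 0.226 without the 2 farthest. Cd274 and Pdcd1lg2 did not pass in either group, with r 0.707 in WT tumors (permutation p 0.0189, adjusted 0.0568, rho 0.709, permutation p 0.0261, adjusted 0.105) and 0.255 in PD-1cKO tumors (permutation p 0.479, adjusted 0.496, rho 0.345, permutation p 0.331). Over the 12 pairs, 9 did not pass on r, and their r ranged from -0.504 to 0.748.

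**Figure D5:**
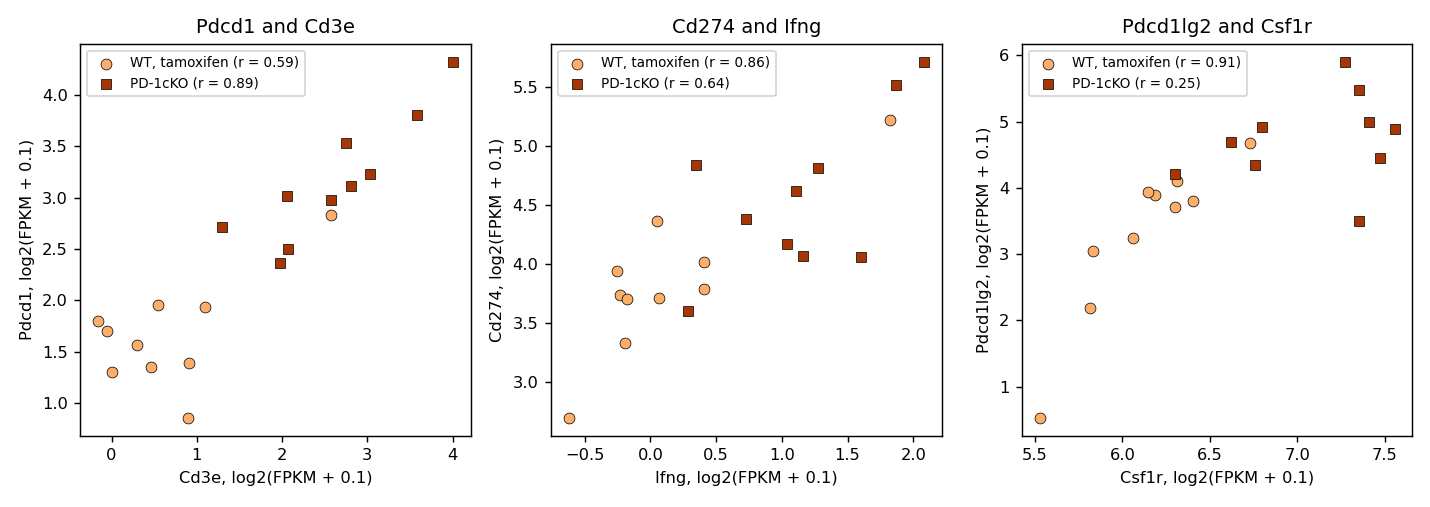
Tumors of the deletion study by log2(FPKM + 0.1), with Pdcd1 against Cd3e, Cd274 against Ifng and Pdcd1lg2 against Csf1r, circles for the 10 WT and squares for the 10 PD-1cKO tumors. Pdcd1 rises with Cd3e in PD-1cKO tumors (r 0.886), and Pdcd1lg2 rises with Csf1r in WT tumors (r 0.906) while in PD-1cKO tumors r is 0.247.

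Across the 43 tumors each member had its own closest genes, listed here by Pearson r of log2(FPKM + 0.1) among the 13228 genes whose mean over the tumors reached 1 FPKM. These are descriptions over tumors that share groups and libraries. For Pdcd1 they were Cd8a (0.955) and Cd8b1 (0.931), the chains of CD8, with Cxcr6 (0.926), a chemokine receptor, and Cyfip2 (0.925), while Cd3e ranked 115 (0.844). For Cd274 they were Samhd1 (0.915), Gbp5 (0.911), Gbp8 (0.905), Gbp4 (0.897) and Srgn (0.889), of which the Gbp genes encode interferon-inducible GTPases, and Ifng ranked 8 (0.881). For Pdcd1lg2 they were Tmem26 (0.962), Apol7c (0.953), Ccl8 (0.911), a chemokine of macrophages, Xdh (0.911) and Tgm2 (0.910), and Csf1r ranked 27 (0.855).

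Part of this likeness is the difference between groups, so deviations from group means were ranked in the same way. The closest genes were then Cd8b1 (0.953), Cd8a (0.933), Cd3g (0.922) and Trac (0.905) for Pdcd1, all T-cell genes. They were Il15ra (0.867), Parp14 (0.865), Gbp4 (0.851), Gbp8 (0.849) and Herc6 (0.845) for Cd274, and Tmem26 (0.885), Apol7c (0.827), Tarm1 (0.817), F10 (0.807) and Tgm2 (0.777) for Pdcd1lg2. By deviations Cd3e ranked 53 (0.739) for Pdcd1, Ifng ranked 42 (0.772) for Cd274 and Csf1r ranked 143 (0.565) for Pdcd1lg2. Between the members, r of the deviations was 0.588 for the ligands, 0.4004 for Pdcd1 and Cd274 and 0.133 for Pdcd1 and Pdcd1lg2.

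Most genes of the receptor's own surroundings were called too. Of 15 genes of the T-cell receptor complex and the signaling molecules PD-1 acts on or beside, 14 were called higher after 2 doses of PD-1 Ab and 13 in PD-1cKO tumors, and none was called lower in either, where 5.03% and 4.2% of all tested genes were called higher. Their median log2 fold change was 2.47 against -0.04 over all tested genes, and 1.58 against -0.20. Large called changes after 2 doses were those of Icos (3.09), Cd8a (3.06) and Cd3g (2.95). In PD-1cKO tumors the 4 largest were Cd3e (1.96), Lat (1.94), Zap70 (1.90) and Cd8a (1.89). Ptpn11, which encodes SHP-2, was not called in either comparison, at 0.06 (adjusted p 0.764) and -0.32 (adjusted p 0.0809). After 1 dose none of the 15 was called by limma, with a median of 1.39 against 0.26 over all genes. The 6 T-cell markers were all called higher in both comparisons, and of the 6 macrophage markers 6 were after 2 doses and 3 in PD-1cKO tumors. Their medians were 2.50 and 1.51 after 2 doses, and 1.68 and 1.13 in PD-1cKO tumors.

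The summed FPKM of the T-cell markers was 22.6 to 97.8 in PD-1 Ab-treated tumors after 2 doses and 6.30 to 11.9 in isotype control tumors, and that of the macrophage markers was 649 to 2244 and 392 to 498. In the deletion study the T-cell sum was 19.4 to 93.4 in PD-1cKO and 7.16 to 27.3 in WT tumors, and the macrophage sum was 552 to 2226 and 298 to 680. Of 6 dendritic cell markers, Xcr1 (1.98) and Clec9a (1.72) were called higher after 2 doses and 0 of the 5 tested in PD-1cKO tumors. After 2 doses 4 of the 6 had log2 fold changes above 0. The summed FPKM of the 6 went the other way, at 157 to 217 against 199 to 299 after 2 doses. In the deletion study it was 40.8 to 111 in PD-1cKO and 81.6 to 145 in WT tumors, and the cultures held 174 to 184. Of 4 NK cell markers only Klrd1 was called, in both comparisons (2.77 and 2.04). The medians were 1.36 after 2 doses and 0.41 in PD-1cKO tumors, where 2 of the 3 tested had log2 fold changes above 0. The summed FPKM of the 4 was 10.3 to 26.6 against 2.85 to 4.88 after 2 doses. In the deletion study it overlapped, at 3.74 to 33.8 in PD-1cKO and 1.99 to 9.31 in WT tumors. Of 5 adipose markers only Plin1 was called after 2 doses (2.99) and 0 in PD-1cKO tumors, but all 5 had log2 fold changes above 0 in both, with medians of 2.82 and 1.63. Their summed FPKM was 23.5 to 302 against 9.62 to 65.1 after 2 doses, and 3.17 to 430 against 4.95 to 48.8 in the deletion study. Of 5 muscle markers Acta1 (3.98) was called after 2 doses and 0 in PD-1cKO tumors, with medians of 2.02 and -1.07. No marker list had a member called lower in these comparisons. The part of these markers in the changes of the members was not tested beyond the ratios to Cd3e and Csf1r.

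Of 12 transcription factors known to act on Pdcd1, 4 were called higher after 2 doses and 4 of the 11 tested were in PD-1cKO tumors, where 5.03% and 4.2% of all tested genes were. They were Irf4 (2.38 and 1.11), Tbx21 (2.10 and 1.80), Tox (1.97 and 1.68) and Nfatc2 (1.64 and 1.01), and Tox is a factor of exhausted T cells. The medians were 0.75 and 0.50. Nr4a1 was at -0.13 (adjusted p 0.506) and 0.01 (adjusted p 0.965).

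Along the path from interferon gamma to the ligands, the antibody comparison called 3 of 16 genes and the deletion comparison 1, each of them higher. Of all tested genes 5.3% and 8.07% were called, so the deletion share was near that of all genes. Ifng rose by 2.52 (SE 0.34, adjusted p 0.00106) after 2 doses and by 1.02 (SE 0.27, adjusted p 0.00692) in PD-1cKO tumors. Stat2 was at 1.21 (adjusted p 0.00123) and called after 2 doses, and at 0.14 (adjusted p 0.567) in PD-1cKO tumors. The difference between the comparisons was not called for any of the 16 genes. Irf1 was under the 2-fold limit at 0.62 (adjusted p 0.00349) after 2 doses, and at 0.05 (adjusted p 0.846) in PD-1cKO tumors. The medians of the 16 were 0.41 and 0.02.

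On the interleukin 4 and GM-CSF side of PD-L2, 3 of 5 tested genes were called higher after 2 doses and 2 of 5 in PD-1cKO tumors, beside 5.03% and 4.2% of all tested genes. Il4ra, the interleukin 4 receptor chain, was at 1.54 (adjusted p 0.000991) and 0.96 (adjusted p 0.000834), the latter under the 2-fold limit. Csf2rb and Csf2ra, the GM-CSF receptor chains, were called in both, at 1.52 and 1.29 after 2 doses and at 1.11 and 1.29 in PD-1cKO tumors. Stat6 was at 0.43 (adjusted p 0.0129) and 0.19 (adjusted p 0.102). The medians of the 5 were 1.29 and 1.11, beside 1.51 and 1.13 for the 6 macrophage markers. The part of myeloid content in these changes was not tested.

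Of 5 other partners of the ligands 0 were called in either comparison by limma, which with 5.3% and 8.07% of all genes called is no result about them. Cd80, which also binds PD-L1, was at 0.97 (adjusted p 0.0273) and 0.78 (adjusted p 0.0163). Cmtm6, which keeps PD-L1 on the cell surface, was at 0.68 (adjusted p 0.00807) and 0.62 (adjusted p 0.00133), under the 2-fold limit both times.

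The few tested neighbours of the ligand genes on chromosome 19 were not called in the antibody or deletion comparisons, where 5.3% after 2 doses and 8.07% in PD-1cKO of all genes were, so their number is too small to set them apart. Within 100 kb lie Jak2, Insl6, Rln1, Plgrkt, Ric1 and A930007I19Rik, an antisense gene that overlaps Pdcd1lg2. Jak2 was at 0.14 (adjusted p 0.726) after 2 doses and -0.50 (adjusted p 0.0428) in PD-1cKO tumors, and Plgrkt, whose start is 65 bases from that of Cd274, was at 0.14 (adjusted p 0.359) and -0.54 (adjusted p 0.0143). A930007I19Rik had a mean of 0.661 FPKM in PD-1 Ab-treated tumors after 2 doses, against 12.6 FPKM for Pdcd1lg2. The library kit marks strand, and whether the counting used it is not given in the sources used here.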

How the data were processed

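RNA of 46 samples was read by the authors from stranded total RNA libraries as paired ends of 50 bases, aligned to mouse B38 with OSA in Omicsoft Array Studio and quantified over Ensembl genes. The values deposited by the authors are FPKM, which divide a gene's fragments by transcript length and by the fragments of the sample, so short abundant RNAs lower the values of other genes. Symbols, positions and exons came from GENCODE M21, and upstream sequences from RefSeq (GRCm38.p6, 32851 windows). Fragments per sample were estimated from the steps between low values of 8417 genes with 1 transcript. A value counted as whole within 0.05 fragments.

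Each comparison used its own groups in limma 3.58.1 (R 4.3.3, lmFit, eBayes with trend) on log2(FPKM + 0.1), which understates changes of low genes, with genes at a mean of at least 0.5 FPKM in any group compared and Benjamini-Hochberg adjustment. A call needed an adjusted p under 0.01 and 2-fold. Count tests were not used, since the deposited unit is FPKM. Ratios were tested by 2-sided permutation, exact over all splits for 5 against 5 and with 100000 resamples for 10 against 10, adjusted over 21 tests, with a limit of 0.05. Correlations used 100000 resamples and were adjusted over 12. scipy 1.17.1, numpy 2.4.6, pandas 2.3.3 and matplotlib 3.10.9 were used with Python 3.11.15, and the fit was tested on simulated data.

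Alternatives were adding 1 FPKM, moving the filter to 1 FPKM or dropping it, scaling by the upper quartile or by median of ratios, all 8 groups in 1 fit, no trend, a replicate block, identifier runs as a covariate, other T-cell and myeloid measures, and leaving out each replicate. The genes and lists were chosen with earlier results of these data known. Named were the 3 members, Cd3e, Csf1r, up to 4 called genes per pathway list by size, Ifng, Jak2, Irf1, Cd80, Tox and Cmtm6 in any case, the 5 genes most like each member and the genes within 100 kb. Beyond this rule Stat6, Nr4a1, Ptpn11 and the called markers Xcr1, Clec9a, Klrd1, Plin1 and Acta1 were named after their values were seen. Some genes that the rule names, and 1 motif that was searched, are not reported here. No sample was left out of the results first given, and no pair of samples held identical values.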

Additional observations from a re-analysis of the deposited data

Results flagged for a closer look

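Of 72 groups of values examined for a sample far from the others, 7 had one, and chance flags about 1 in 20. In WT tumors given tamoxifen, replicate 3 was far above the rest in Pdcd1 (7.02 FPKM, next 3.79), in Cd274 (37.2 FPKM, next 20.5) and in Cd3e (5.83 FPKM, next 2.03), and its log2 ratio of Cd274 to Csf1r was -0.96 (next -2.04). Replicate 9 of the same group had the lowest log2 ratio of Pdcd1lg2 to Csf1r (-5.00, next -3.63). After 1 dose, isotype control replicate 1, the mostly mitochondrial library, had a log2 ratio of Pdcd1 to Cd3e of 3.51 (next 1.21), and PD-1 Ab-treated replicate 1 had a log2 ratio of Cd274 to Cd3e of 4.27 (next 3.08).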

How the results depend on the processing

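Of 930 recomputed values over 57 results, 235 alternative settings and 629 with 1 tumor left out kept their direction and their side of the limit (counts within 1.5 times). After 2 doses all 3 members stayed called throughout. With all 8 groups in 1 fit, Pdcd1lg2 after 1 dose was called (3.22) among 16 genes, and the antibody minus deletion effect had 2 calls. With identifier runs as a covariate, the deletion comparison had 0 calls, with Pdcd1 at 2.09 and Pdcd1lg2 at 0.34. Pdcd1lg2 there (1.42) also missed the limit with no filter (adjusted p 0.0202) and no trend (adjusted p 0.01001). The cause was not tested. With no filter, which tests more genes, the calls were 450 of 2 doses (799), 28 of antibody minus deletion (15) and 1 of 2 doses minus 1 dose (0). With 1 FPKM added, calls were 617 for deletion (1217) and 25 for antibody minus deletion, Pdcd1lg2 against cultures was 0.94, and 3 ratios missed the limit, namely Pdcd1lg2 to Cd3e (0.63) and Cd274 to Pdcd1lg2 (-0.68) after 2 doses and Cd274 to Cd3e in PD-1cKO (-0.79). Median-of-ratios scaling gave 9 calls of antibody minus deletion, and raised the share of deletion calls that were higher from 52.0% to 73.3% (76.2% by upper quartile). With the mean of Cd3d, Cd3e and Cd3g, Pdcd1lg2 to that mean passed after 1 dose (1.08). Pdcd1 after 2 doses turned from 0.12 to -0.0084, and it passed with neither T-cell measure. With 4 myeloid genes, Pdcd1 in PD-1cKO passed (0.61).

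Leaving out 1 tumor gave 0 to 7 calls after 1 dose (7 without isotype control replicate 1), 375 to 1534 after 2 doses (without PD-1 Ab replicates 3 and 5), 743 to 1871 for deletion (without PD-1cKO replicates 4 and 9) and 2 to 55 for antibody minus deletion (without PD-1 Ab replicates 3 and 5). Pdcd1lg2 ranged from 2.81 to 3.46 after 1 dose and from 1.11 to 1.58 in PD-1cKO. Ratios with a changed call were Pdcd1 to Cd3e after 1 dose (-1.25 to -0.45, passing without PD-1 Ab replicate 1), Cd274 to Csf1r after 1 dose (0.40 to 0.75, passing without isotype control replicate 1), and in PD-1cKO Pdcd1 to Csf1r (0.43 to 0.65, passing without WT replicate 3 or PD-1cKO replicate 3) and Cd274 to Pdcd1lg2 (-0.88 to -0.51, passing without PD-1cKO replicate 9).

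Replicate numbers did not pair the samples (correlations of deviations from -0.21 to 0.16). With the replicate block the calls were 316 after 2 doses, 891 for deletion and 1 for antibody minus deletion, and no member changed its call. Depth limits Pdcd1 and Pdcd1lg2 most, at 1 to 43 and 8 to 32 fragments in the lowest tumor groups.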
